A study of Mus musculus with 9 samples.

Results

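The guidance genes examined here were the semaphorins with their plexin and neuropilin receptors, the slits with their Robo receptors, the netrins with their Unc5 receptors, and the ephrins with the Eph receptors. A list of 52 such genes was matched by symbol to the arrays, and 51 of them had a probe set of their own (Ephb2 was not analysed here), among 19938 genes tested. They were measured in CXCL12-abundant reticular (CAR) cells, the bone marrow stromal cells that make the chemokine Cxcl12 and nurture blood stem cells and B cell precursors. All mice carried the genotype Cxcl12+/gfp, in which green fluorescent protein marks cells that use the Cxcl12 locus, and cells bright for this protein and negative for blood lineage markers had been sorted from marrow. One group received granulocyte colony-stimulating factor (G-CSF), the cytokine that drives neutrophil output and mobilises stem cells, at 250 µg/kg per day for 5 days (5 arrays). The control group received phosphate-buffered saline (PBS) alone for 5 days (4 arrays). The labels give no age, sex or number of mice per array. They call the arrays biological replicates without naming the animals, so the p-values reflect only how these arrays varied, which may be technical.

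Guidance molecules were first described as cues that attract or repel growing axons, and the same ligands and receptors steer blood vessels, immune cells and bone cells. Semaphorins act through plexins, with neuropilins as co-receptors for most secreted members, slits act through Robo receptors, and netrins act through Dcc and the Unc5 receptors. Ephrins sit in the membrane of one cell and bind Eph receptor tyrosine kinases on the next, and signals can run into both cells. In bone, several of these systems are known to act between osteoblasts, osteoclasts, nerves and vessels.

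Levels are log2 values of the deposited RMA intensities. A change is the G-CSF mean less the PBS mean in log2 units, with its standard error (SE) and 95% interval from limma, fitted over all 21789 probe sets that have 1 gene symbol. Genes were called when the p, adjusted by Benjamini and Hochberg's method across that whole table, was under 0.05. Groups were compared between arrays for the same gene or the same list of genes, since probe sets differ in brightness. The median level over all probe sets is used below only as a rough mark of low signal. RMA adjusts arrays toward a shared distribution, so values are relative to the other transcripts. The deposited values still differed in spread, with an interquartile range of 2.45 (PBS replicate 3) to 2.99 (PBS replicate 1) in log2 units. In these sorted populations, fewer cells of a type and less RNA per cell cannot be told apart.

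The sorted cells carried Cxcl12 and Lepr, markers of the labelled type, in all arrays. Cxcl12 was at 12.35 ± 0.11 in PBS (SD, n = 4) and 11.99 ± 0.07 in G-CSF (SD, n = 5), and Lepr at 11.55 ± 0.21 and 11.33 ± 0.26. Of the 10 CAR cell markers listed, 5 were called lower in G-CSF. All G-CSF arrays lay below all PBS arrays for 6 of the 10, Cxcl12 among them, and above them for 1. The labels disagree on the source, since one field names pre-B colonies and, for G-CSF replicates 2 to 5, the genotype Hspa9+/-. Every other field describes CAR cells, and the groups follow the titles. The arrays fell into 2 sets on the first principal component (34.9% of the variance), which the labels do not name as a batch. Set 1 held G-CSF replicates 1 to 3 beside PBS replicates 1 and 2, while the remaining 2 arrays of each group made up set 2. The sets also differed in spread, with interquartile ranges over all probe sets of 2.79 to 2.99 in set 1 and 2.45 to 2.76 in set 2. PBS replicate 3 had the lowest of these. It stood apart at 56.5 on that component, against 22.5 for PBS replicate 4, so results are also given without it. The RMA values hold no detection call and no zeros, and 22 of the 51 genes had a mean level below 5.42, the median over all probe sets tested.

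Of the 51 guidance genes, 4 changed after G-CSF. The semaphorin Sema4c and the netrin receptor Unc5b rose, and the plexins Plxna2 and Plxnc1 fell, each by between 1.74-fold and 2.25-fold. The other 47 did not pass. The 4 called genes are 7.84% of the 51, where 1.62% of all probe sets were called. The genes were chosen with earlier results of these data known, so this share and those that follow are descriptive only. Of all probe sets, 0.743% were called higher and 0.877% lower. The groups did not overlap for 8 of the 51 (15.7%), 3 of them higher and 5 lower, against 4.65% of all probe sets. An unadjusted p under 0.05 was reached by 12 (23.5%), against 9.22% of all probe sets. Across the 51 genes the median change was -0.02, and over all probe sets it was 0.01. With the array set as a block, added after seeing the data, the same 4 genes were called (7.84%), against 2.74% of all probe sets. That block was drawn from these same values, so its results here and below add no separate support.

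**Figure D1:**
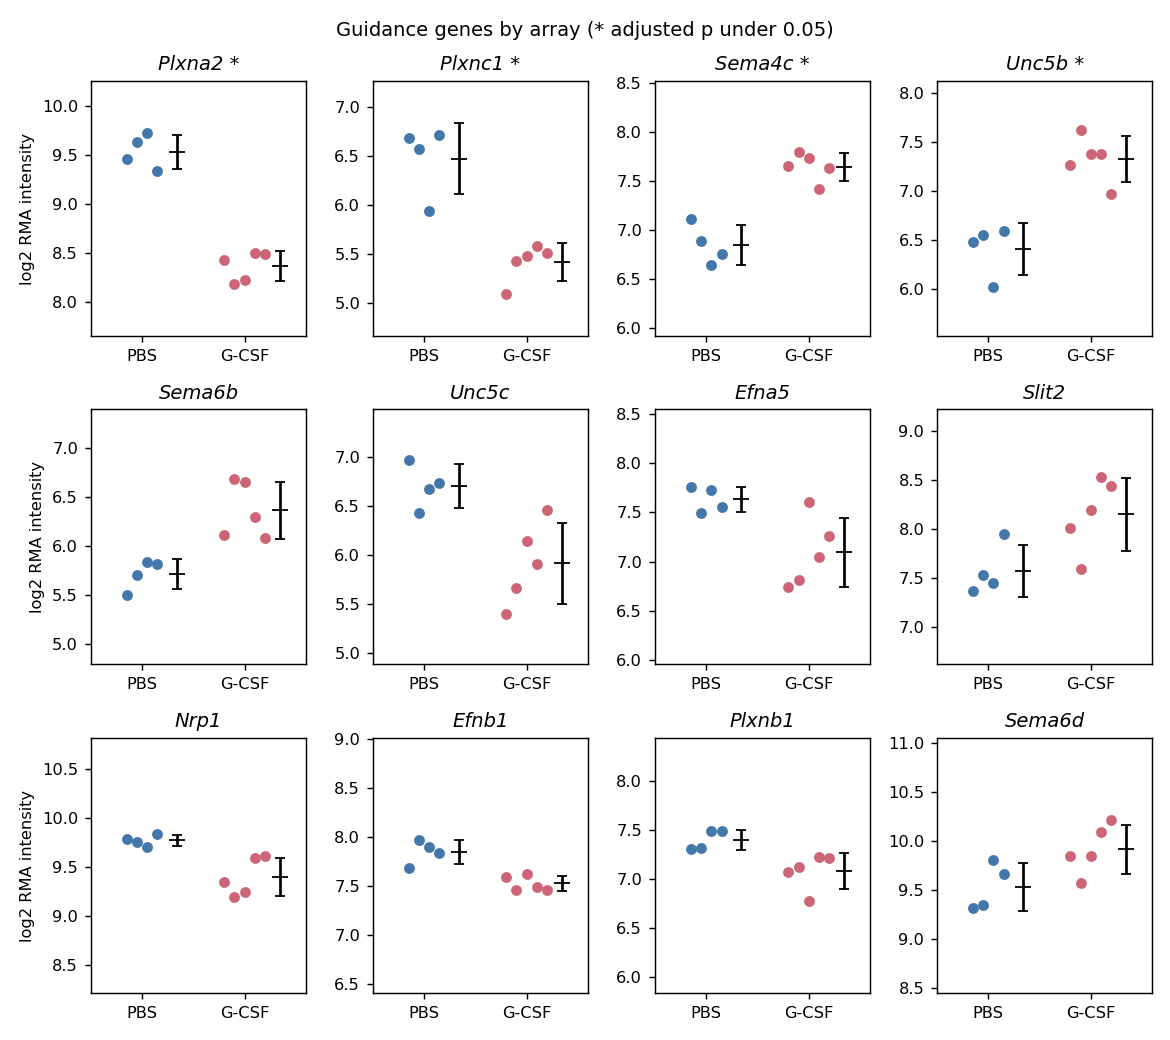
Log2 RMA intensity by array for the 12 guidance genes with an unadjusted p under 0.05, ordered by p, with PBS arrays (n = 4) in blue and G-CSF arrays (n = 5) in red. Black bars give mean ± SD, every panel spans the same log2 range, and asterisks mark the 4 genes called at adjusted p under 0.05, whose groups do not overlap.

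Plexins held both genes that fell. Plxna2, a receptor for class 6 semaphorins and, with neuropilins, for secreted ones, was at 9.45, 9.63, 9.72 and 9.33 in PBS replicates 1 to 4 and at 8.43, 8.19, 8.22, 8.50 and 8.49 in G-CSF replicates 1 to 5. The groups stood 0.83 apart at their nearest arrays. The mean went from 9.53 ± 0.17 (n = 4) to 8.37 ± 0.15 (n = 5), a 2.25-fold fall (change -1.17, SE 0.14, 95% interval -1.48 to -0.86, adjusted p = 0.00134 in limma). It fell by 1.26 in set 1 and by 1.03 in set 2. The call held with any 1 array left out, at adjusted p of 0.00330 to 0.00632, and the change was -1.11 without PBS replicate 3.

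Plxnc1, the plexin that binds Sema7a, was at 6.68, 6.56, 5.93 and 6.71 in the PBS arrays and at 5.09, 5.43, 5.47, 5.58 and 5.51 in the G-CSF arrays. All G-CSF arrays lay below all PBS arrays, and PBS replicate 3 was the nearest of the controls. The mean went from 6.47 ± 0.36 to 5.42 ± 0.19, a 2.08-fold fall (change -1.06, SE 0.18, 95% interval -1.46 to -0.65, adjusted p = 0.0118). Without PBS replicate 3 the change was -1.24 (adjusted p = 0.00219). In the 9 fits that left out 1 array the call held, and the adjusted p was highest, at 0.0485, when PBS replicate 1 was dropped. The change was -1.29 in set 1 and -0.78 in set 2.

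Sema4c, a membrane semaphorin that signals through plexin B2, was at 7.11, 6.88, 6.64 and 6.75 in the PBS arrays and at 7.65, 7.79, 7.73, 7.41 and 7.62 in the G-CSF arrays. Every G-CSF array exceeded the highest PBS array, by at least 0.30. The mean rose from 6.85 ± 0.20 to 7.64 ± 0.14, which is 1.74-fold (change 0.80, SE 0.15, 95% interval 0.48 to 1.11, adjusted p = 0.0163). The change was 0.73 in set 1 and 0.82 in set 2. Dropping PBS replicate 4 ended the call (adjusted p = 0.0574), as did testing every probe set of the array (adjusted p = 0.0509), and it held without PBS replicate 3 (change 0.73, adjusted p = 0.0345).

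Unc5b, a netrin receptor known from blood vessels and immune cells, was at 6.48, 6.55, 6.02 and 6.58 in the PBS arrays and at 7.26, 7.62, 7.38, 7.38 and 6.97 in the G-CSF arrays. The groups did not overlap, with the lowest G-CSF array 0.38 above the highest PBS array. The mean rose from 6.41 ± 0.26 to 7.32 ± 0.24, which is 1.89-fold (change 0.92, SE 0.17, 95% interval 0.54 to 1.29, adjusted p = 0.0193). The change was 0.91 in set 1 and 0.87 in set 2. Without PBS replicate 3 it was 0.78 (adjusted p = 0.0359). Dropping PBS replicate 1 (adjusted p = 0.0504), G-CSF replicate 3 (0.0519) or G-CSF replicate 4 (0.0541) ended the call, as did testing every probe set (0.0649).

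The 250 bases before the start of these 4 genes, read from RefSeq (GRCm38.p6), are shown because these were the guidance genes whose RNA changed. Each is written 5′ to 3′ on the strand of its gene, and capitals mark the GC box GGGCGG, the letters bound by Sp factors, on either strand. Sema4c has another start in the table, and its outermost window is printed.

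Plxna2, chr1:194619579-194619828, plus strand: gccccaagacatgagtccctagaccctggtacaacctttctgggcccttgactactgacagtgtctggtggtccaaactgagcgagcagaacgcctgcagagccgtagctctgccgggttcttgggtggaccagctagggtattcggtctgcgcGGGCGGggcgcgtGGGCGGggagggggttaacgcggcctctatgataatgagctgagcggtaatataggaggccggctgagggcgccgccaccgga
Plxnc1, chr10:94944846-94945095, minus strand: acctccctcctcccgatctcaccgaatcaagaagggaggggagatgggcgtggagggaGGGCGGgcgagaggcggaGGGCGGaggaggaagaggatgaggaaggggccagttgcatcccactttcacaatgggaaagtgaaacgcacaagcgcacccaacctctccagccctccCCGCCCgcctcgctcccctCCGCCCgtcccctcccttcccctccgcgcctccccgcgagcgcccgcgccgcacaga
Sema4c, chr1:36558382-36558631, minus strand: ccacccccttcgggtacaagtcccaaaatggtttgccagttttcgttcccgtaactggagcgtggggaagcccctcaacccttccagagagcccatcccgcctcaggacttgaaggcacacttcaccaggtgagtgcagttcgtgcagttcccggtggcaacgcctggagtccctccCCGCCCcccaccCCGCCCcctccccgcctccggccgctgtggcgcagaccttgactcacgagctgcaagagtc
Unc5b, chr10:60831582-60831831, minus strand: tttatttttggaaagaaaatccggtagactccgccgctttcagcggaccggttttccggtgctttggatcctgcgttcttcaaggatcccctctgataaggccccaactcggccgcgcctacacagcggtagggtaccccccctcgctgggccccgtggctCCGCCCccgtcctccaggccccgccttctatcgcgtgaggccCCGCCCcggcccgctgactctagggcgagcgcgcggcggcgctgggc

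The printed windows held 62.8% to 68.8% G and C, where the median was 64.4% over the windows of all guidance genes and 52.4% over all 32851 windows. Each held the GC box 2 times, or 4 times for Plxnc1. Promoter sequence was given for 44 of the 51 guidance genes, in 59 windows, of which 43 held the GC box (72.9%), against 32.7% of all windows. The motif TTCNNNGAA, which STAT factors bind, was in 1 of the 59 windows (1.69%, against 7.02% of all windows) and in none of the windows of the 4 genes. The motif CCCNNGGG, which EBF factors bind, was in 11 of the 59 (18.6%, against 11.8%), among them the inner window of Sema4c. The forkhead motif GTAAACA was in 0 of the 59, and 3.17% of all windows held it. Both strands were searched, and the motifs overlapped nowhere in the 5 windows of the 4 genes.

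**Figure D2:**
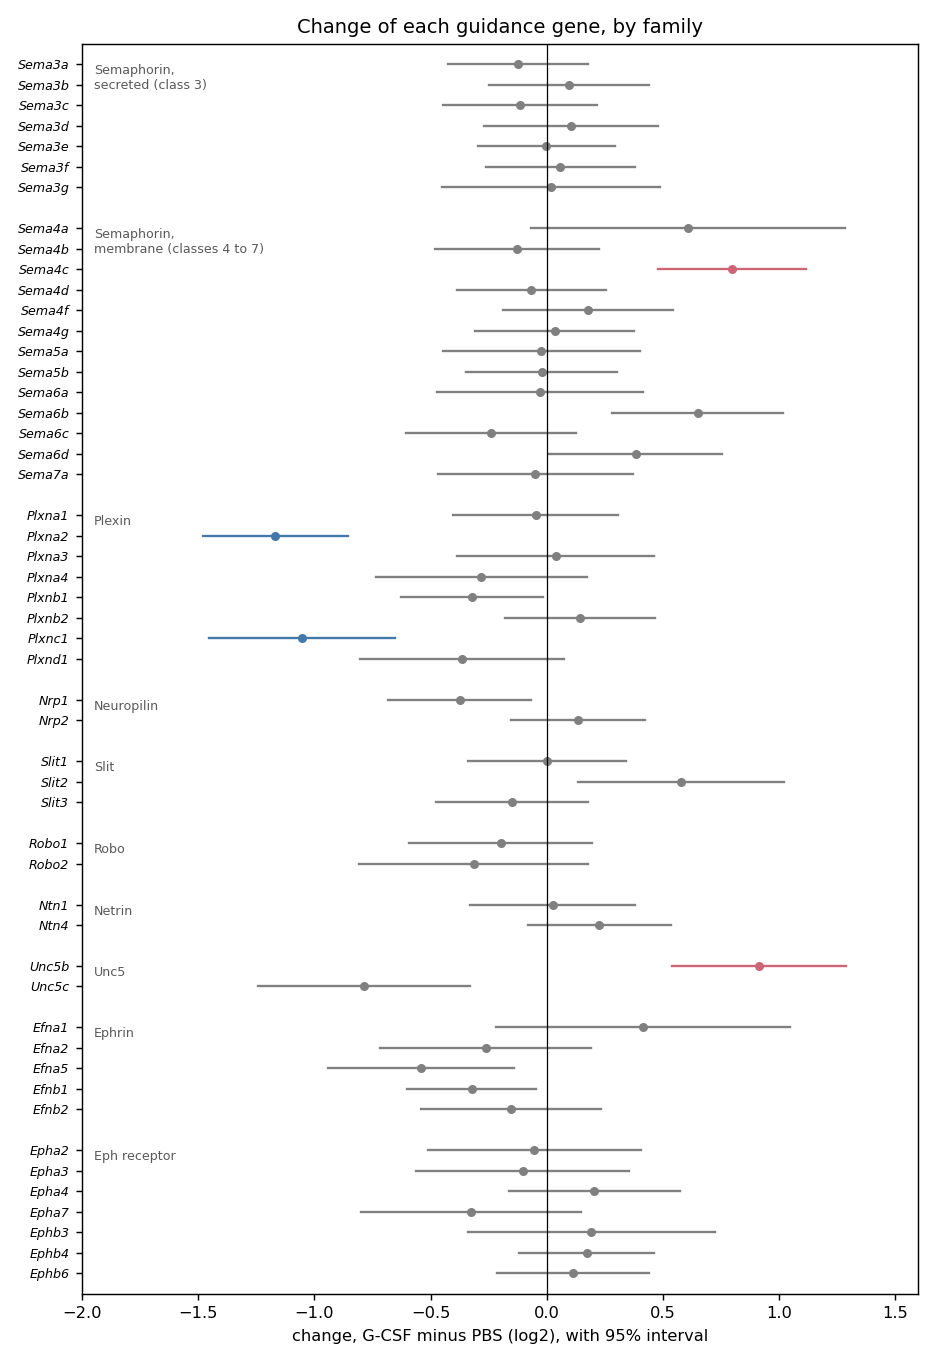
Change of each of the 51 guidance genes, G-CSF minus PBS in log2 units, as a point with its 95% interval from the limma fit, grouped by family. Sema4c and Unc5b (red) lie to the right of 0, Plxna2 and Plxnc1 (blue) lie to the left, and grey genes were not called.

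Among the ligands of plexins, the 7 secreted class 3 semaphorins gave no call, with changes between -0.12 (Sema3a, a repellent cue of axons and a regulator of bone mass) and 0.10 (Sema3d) and with all groups overlapping. The smallest p of the class were those of Sema3a (-0.12, 95% interval -0.43 to 0.18, adjusted p = 0.929) and Sema3c (-0.12, 95% interval -0.45 to 0.21, adjusted p = 0.946). The mean level of 6 of the 7 was below the median of all probe sets, with Sema3f the exception at 5.83 ± 0.20 and 5.89 ± 0.16. Of the 13 membrane semaphorins, 1 rose (Sema4c), 0 fell and 12 did not pass, with a median change of -0.02, or 0.10 without PBS replicate 3.

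Sema6b, a class 6 ligand of A-type plexins, was at 5.51, 5.71, 5.84 and 5.82 in PBS and at 6.11, 6.69, 6.66, 6.30 and 6.08 in G-CSF. Every G-CSF array lay above the PBS arrays, by at least 0.24, but the gene did not pass (change 0.65, SE 0.17, 95% interval 0.28 to 1.02, adjusted p = 0.0989). Its 2 probe sets held identical values in all 9 arrays. The change was 0.88 in set 1 and 0.36 in set 2, and it was 0.69 without PBS replicate 3.

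Sema6d, which binds plexin A1 and A4, was at 9.31, 9.34, 9.80 and 9.66 in PBS and at 9.84, 9.57, 9.85, 10.10 and 10.21 in G-CSF. The groups overlapped, since G-CSF replicate 2 lay below PBS replicates 3 and 4. The change was 0.38 (SE 0.17, adjusted p = 0.518), and it was 0.42 in both sets.

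Sema4a, a membrane semaphorin best known from immune cells, varied most among the guidance genes in the PBS arrays, at 5.21, 6.92, 6.28 and 5.76, and was at 7.22, 6.16, 6.50, 6.87 and 6.51 in G-CSF. Its change of 0.61 did not pass (95% interval -0.07 to 1.28, adjusted p = 0.632). The mean log2 level of 12 neutrophil markers was 7.78, 9.32, 8.22 and 7.90 in PBS replicates 1 to 4, so the PBS arrays had the same order for Sema4a and for these markers. In the G-CSF arrays that mean was 8.73 to 9.49, and replicates 3 to 5 had another order than for Sema4a. The part of such cells in the level of Sema4a was not tested.

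Sema7a, the ligand of Plxnc1, was at 8.50 ± 0.17 and 8.45 ± 0.37 (change -0.05, 95% interval -0.47 to 0.37, adjusted p = 0.989), at -0.32 in set 1 and 0.35 in set 2. Plxnb2, the receptor of Sema4c, was at 7.44 ± 0.21 and 7.58 ± 0.15 (change 0.14, 95% interval -0.18 to 0.47, adjusted p = 0.913). The partners of 2 called genes were therefore measured without a call of their own, and their intervals lay within 0.5 log2 units of 0. Sema4d, which acts on osteoblasts through plexin B1, had 2 probe sets at changes of -0.07 and 0.33, neither of them called.

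Among the other plexins, Plxnb1, the receptor of Sema4d, was at 7.31, 7.32, 7.49 and 7.49 in PBS and at 7.07, 7.12, 6.77, 7.23 and 7.21 in G-CSF. Its groups did not overlap, with 0.09 between the nearest arrays, but it did not pass (change -0.32, SE 0.14, adjusted p = 0.5005). Plxnd1, a receptor of Sema3e known for vessel patterning, was at 9.94, 9.86, 9.39 and 9.15 in PBS and at 9.33, 9.49, 9.41, 8.88 and 8.97 in G-CSF. Both groups were lower in set 2 than in set 1, the groups overlapped when the sets were pooled, and the change did not pass (-0.37, adjusted p = 0.687, and 0.0996 with the set as a block). Plxna1, Plxna3, Plxna4 and Plxnb2 lay between -0.28 and 0.14. Over the 8 plexins, 2 fell, 0 rose and 6 did not pass, with a median change of -0.30 (-0.29 in set 1 and -0.26 in set 2). That median was nearer 0 without PBS replicate 3 (-0.21) and with array weights (-0.19).

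The neuropilins gave no call. Nrp1, a co-receptor for class 3 semaphorins and for VEGF, was at 9.78, 9.76, 9.70 and 9.84 in PBS, the smallest spread among the guidance genes in these arrays (SD 0.06). In G-CSF it was at 9.34, 9.19, 9.24, 9.58 and 9.61, all below PBS, with the 2 arrays of set 2 the nearest to the controls. Its change of -0.37 (SE 0.14, 95% interval -0.68 to -0.07) did not pass (adjusted p = 0.352), and it was -0.51 in set 1 and -0.17 in set 2. Nrp2, the other co-receptor, was at 8.68 ± 0.16 and 8.81 ± 0.08 (change 0.14, adjusted p = 0.904).

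**Figure D3:**
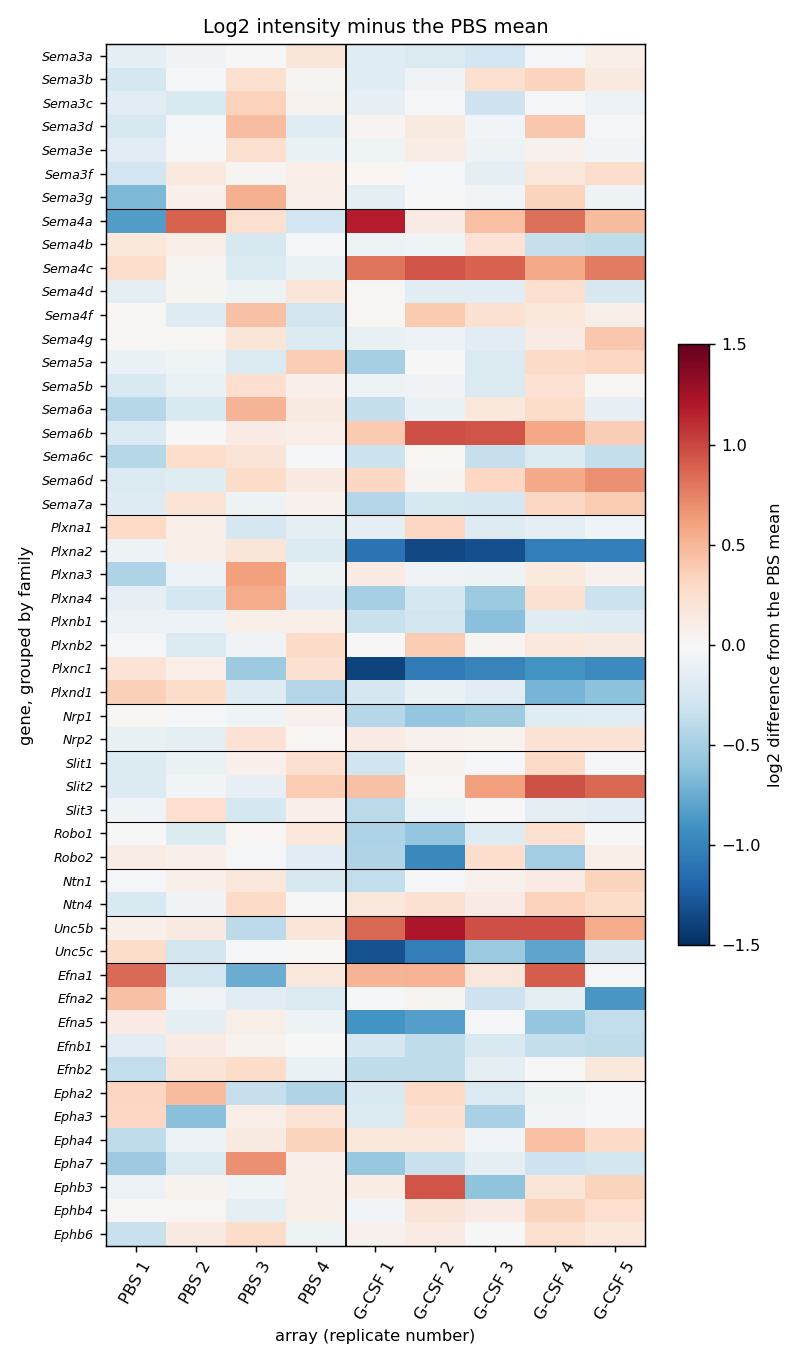
Log2 intensity of the 51 guidance genes in each array minus the mean of the 4 PBS arrays, with genes in rows grouped by family and arrays in columns by group and replicate. The scale runs from -1.5 (blue) to 1.5 (red), and the rows of Plxna2, Plxnc1, Sema4c and Unc5b keep 1 colour across the 5 G-CSF arrays.

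None of the slit, Robo or netrin genes among the 51 was called. Slit2, a secreted ligand of Robo receptors, was at 7.36, 7.53, 7.44 and 7.95 in PBS and at 8.01, 7.59, 8.19, 8.53 and 8.43 in G-CSF. The groups overlapped through G-CSF replicate 2, which lay below PBS replicate 4, and the change of 0.58 did not pass (SE 0.20, 95% interval 0.13 to 1.02, adjusted p = 0.298, and 0.0767 with the set as a block). Slit3 was at 9.55 ± 0.22 and 9.40 ± 0.15 (change -0.15), and Slit1 was at 4.63 in both groups (change 0.00, 95% interval -0.34 to 0.34). Their receptors Robo1 (-0.20, adjusted p = 0.890) and Robo2 (-0.31, adjusted p = 0.819) did not pass, and Robo2 ranged from 3.87 to 5.09 within G-CSF. Of the netrins, Ntn1, the classic ligand of Unc5 and Dcc, had a change of 0.03 (95% interval -0.33 to 0.38) and Ntn4, a basement membrane netrin, one of 0.23 (95% interval -0.08 to 0.54).

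The Unc5 receptors Unc5b and Unc5c lay on opposite sides of 0. Unc5c, a netrin receptor with a role in axon repulsion, was at 6.97, 6.43, 6.67 and 6.74 in PBS and at 5.40, 5.67, 6.15, 5.91 and 6.46 in G-CSF. Of the G-CSF arrays, replicate 5 alone reached into the range of the PBS arrays. Its change of -0.79 (SE 0.21, 95% interval -1.24 to -0.33) did not pass (adjusted p = 0.111, 0.0712 with the set as a block, and 0.0517 to 0.283 with 1 array left out), at -0.96 in set 1 and -0.52 in set 2.

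Of the 5 ephrins among the 51 genes, 0 were called, with a median change of -0.26. Efna5, a membrane-anchored ligand of EphA receptors, was at 7.76, 7.49, 7.72 and 7.56 in PBS and at 6.74, 6.81, 7.61, 7.05 and 7.26 in G-CSF. It was lower in 4 of the 5 G-CSF arrays than in any PBS array, with G-CSF replicate 3 inside the PBS range, and did not pass (change -0.54, SE 0.18, adjusted p = 0.269). Efnb1, a ligand of EphB receptors with a role in bone formation, was at 7.69, 7.97, 7.90 and 7.84 in PBS and at 7.60, 7.46, 7.62, 7.49 and 7.46 in G-CSF. Its groups did not overlap, by 0.07, and it did not pass (change -0.32, SE 0.13, adjusted p = 0.403). Efnb2, the ligand of Ephb4 on arterial vessels and osteoclasts, was at -0.15 (95% interval -0.54 to 0.23), and Efna2 was at -0.26. Efna1 ranged from 4.67 to 6.27 within PBS, and its change of 0.41 had a 95% interval of -0.22 to 1.05.

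The 7 Eph receptors among the 51 genes gave no call, all their groups overlapped, and their changes lay between -0.33 (Epha7) and 0.21 (Epha4). The smallest p of the family were those of Epha7 (95% interval -0.80 to 0.15, adjusted p = 0.793) and Ephb4, the receptor of Efnb2 (0.17, 95% interval -0.12 to 0.46, adjusted p = 0.840). The mean level of 5 of the 7 was below the median of all probe sets. Epha2 was at 6.48, 6.63, 5.81 and 5.70 in PBS, higher in set 1 than in set 2, and at 5.92 to 6.44 in G-CSF. Over all 47 guidance genes without a call, the 95% interval lay within 1 log2 unit of 0 for 42 and within 0.5 for 23. The number of arrays limits how small a change could be seen.

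**Figure D4:**
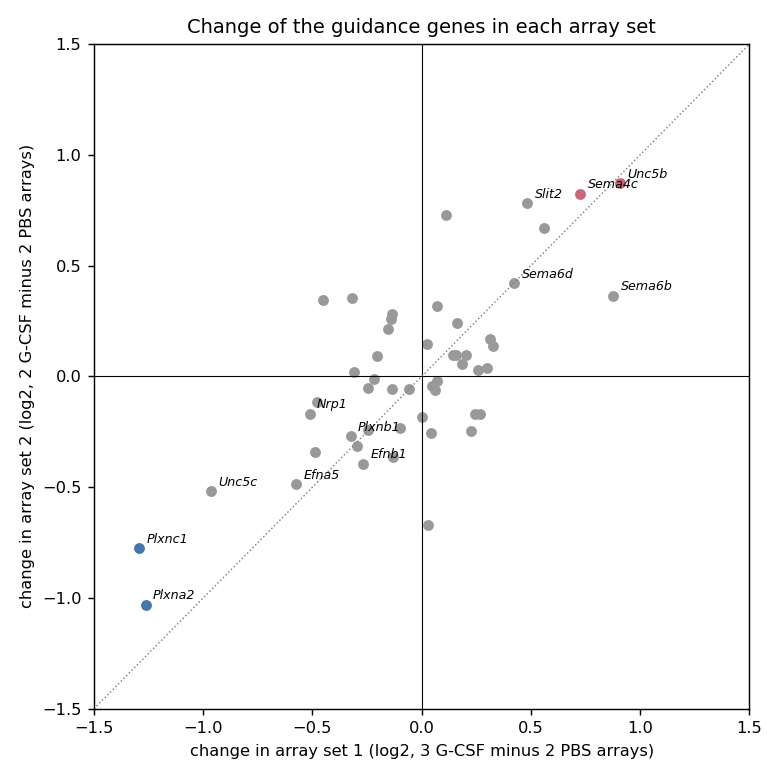
Change of each guidance gene in array set 1 (3 G-CSF minus 2 PBS arrays) against that in array set 2 (2 G-CSF minus 2 PBS arrays), both in log2 units. The dotted line marks equal changes. Plxna2 and Plxnc1 (blue) and Sema4c and Unc5b (red) lie on the same side of 0 in both sets. Their groups do not overlap, so any split of these arrays would give the same side.

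A further list of 31 guidance ligands and receptors, which holds the remaining ephrins, Eph and Unc5 receptors among others, had 30 measured genes, of which 1 rose, 0 fell and 29 did not pass, with a median change of -0.0046. The gene that rose was Flrt2, a membrane protein that binds Unc5 receptors. It was at 7.42, 7.41, 7.73 and 7.90 in PBS and at 8.57, 8.28, 8.63, 8.57 and 8.61 in G-CSF, with no overlap. The change was 0.92 (SE 0.15, 1.89-fold, 95% interval 0.59 to 1.25, adjusted p = 0.00871), at 1.08 in set 1 and 0.77 in set 2. The call held with any 1 array left out. Unc5a (-0.14) and Unc5d (0.20), the remaining Unc5 receptors, were not called. Dcc, the attractive netrin receptor, was at -0.09 (adjusted p = 0.954), and Neo1, its relative, at -0.14 (adjusted p = 0.937).

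Genes that carry signals from these receptors gave no call. Of 42 listed, 40 were measured, with a median change of 0.10. The groups did not overlap for 3 of the 40, all higher, where 4.65% of all probe sets did not overlap in either direction. Cfl1, cofilin, which severs actin filaments, was at 9.70, 9.77, 9.22 and 9.61 in PBS and at 10.13, 10.12, 10.22, 10.15 and 10.09 in G-CSF (change 0.56, SE 0.14, adjusted p = 0.0914). Mical2, of a family of actin oxidases that act downstream of plexins, was at 4.73, 4.89, 5.09 and 5.21 in PBS and at 5.31, 5.55, 5.54, 5.89 and 5.94 in G-CSF (change 0.67, SE 0.17, adjusted p = 0.0924). Both passed with the set as a block, at adjusted p of 0.0471 and 0.00719. That block was drawn from these same values after seeing the data, and with it 598 probe sets were called, against 353. It therefore adds no separate support for either gene.

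Markers of other cell types were read in the same arrays, as mean levels over each list and array. Over all probe sets, 1.62% were called and 4.65% had groups that did not overlap. Of 12 neutrophil markers, 1 rose (Mmp9, a granule protease, change 1.64, adjusted p = 0.0257), and the means were 7.78 to 9.32 in PBS and 8.73 to 9.49 in G-CSF. All 12 changes lay above 0, with a median of 0.92. The groups did not overlap for 3 of the 12, against 4.65% of all probe sets. Of 9 smooth muscle and pericyte markers, 1 rose (Acta2, smooth muscle actin, change 1.57), with means of 5.80 to 5.96 and 6.36 to 6.60. The groups did not overlap for 3 of the 9, all higher. Of 8 measured B cell markers, 2 fell (Cd79a, change -1.08, and Ms4a1, change -0.69), with means of 4.75 to 4.95 and 4.06 to 4.45. For 4 of the 8 the groups did not overlap, all lower. Of 7 measured erythroid markers, 1 fell (Car1, a carbonic anhydrase, change -3.57), with means of 5.15 to 6.18 and 4.50 to 4.95. For 3 of the 7 the groups did not overlap, all lower. Of the 10 CAR cell markers, 5 fell (Il7, Adipoq, Vcam1, Kitl and Ebf3, by 0.66 to 2.08), with means of 10.42 to 10.68 and 9.83 to 9.85. Groups did not overlap for 6 that were lower and 1 that was higher. Of 5 measured osteoblast markers, 1 rose (Col1a1, a collagen chain, change 1.36), and the other 4 did not pass, at -0.56 (Alpl), -0.52 (Ibsp), -0.47 (Sp7) and -0.21 (Dmp1). The median change of that list was -0.47, the groups of Col1a1, Alpl and Ibsp did not overlap, and the means were 7.68 to 7.94 and 7.50 to 7.80.

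Endothelial cells are known to use several guidance receptors. Of 12 endothelial markers, 0 were called, with means of 4.69 to 5.01 and 4.63 to 4.90. The smallest p were those of Emcn (0.70, adjusted p = 0.069) and Stab2 (-0.58, adjusted p = 0.135), and the groups of both did not overlap. Of 10 measured macrophage markers, 0 were called, with means of 5.57 to 6.41 and 5.52 to 5.95. The smallest p were those of C1qb (-0.77, adjusted p = 0.0538) and Mrc1 (-0.79, adjusted p = 0.142), and the groups of C1qb did not overlap. The changes of Cd14, Ccr2, Cd68, Lyz2 and Csf1r lay above 0, at 0.24 to 0.51, and the median of that list was 0.08. The lists of T and NK cells (8 measured), megakaryocytes (4) and glia (4) also gave no call, with the smallest p for Cd3d (0.30) and Cd8a (0.18), Ppbp (-1.88) and Pf4 (-1.15), and Gfap (0.13) and Sox10 (-0.09). The part of these cells in the changes of Plxna2, Plxnc1, Sema4c and Unc5b was not tested.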

How the data were processed

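The deposited intensity values, 1 per probe set and array, are the authors' output of RMA, run in Expression Console per the submitters' processing notes. No version is given in the sources used here. The values (1.73 to 15673.1) are linear, and log2 was taken here. Of 35553 probe sets, 21789 had 1 symbol in the platform annotation and were tested, and 1621 with several were not used for naming. Sema4d and Sema6b have 2 probe sets each. For Sema4d the one with the higher mean was used, and for Sema6b, where both held the same values, the first was kept.

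The 5 G-CSF and 4 PBS arrays, grouped by title, were compared with limma 3.58.1 (lmFit and eBayes, two-sided, no covariates) in R 4.3.3, with Benjamini-Hochberg adjustment over the whole table. The fit was tested on simulated data. The genes and lists were chosen with earlier results of these data known. Genes were given in full where called, at unadjusted p under 0.05, or with groups that did not overlap. From each other list the called genes, or the 2 with the smallest p, were given. Exceptions chosen after their values were seen are Sema4a, Sema7a, Sema4d, Plxnd1, Nrp2, Efna1, Epha2 and the partners and relatives named beside a called gene. The number of arrays limits the precision.

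Alternatives were a replicate block, each array left out, array weights, eBayes with trend and robust settings, median centring, a further quantile normalisation, the mean over a gene's probe sets, a filter to brighter probe sets, and no filter on symbols. The array set and G-CSF replicates 4 and 5 as 1 replicate were added after seeing the data.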

Additional observations from a re-analysis of the deposited data

Results flagged for a closer look

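Among 102 groups (51 genes in PBS and in G-CSF), 2 had 1 array far from the others by Dixon's ratio, where chance gives about 1 in 20. Plxna1, a co-receptor partner of neuropilins, was at 8.78 in G-CSF replicate 2, against 8.27 to 8.40 in the other G-CSF arrays. Plxna4, a related plexin, was at 5.78 in PBS replicate 3, the array that stood apart on the first principal component, against 4.97 to 5.10 in the other PBS arrays.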

How the results depend on the processing

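None of the 15 genes refitted under the alternatives (the 12 guidance genes with an unadjusted p under 0.05, Flrt2, Cfl1 and Mical2) changed sign in the fits that gave it a value. Mical2 had none under the brighter filter, and Sema4a and Plxnd1 were refitted with the array sets only. Where groups do not overlap, leaving out an array or taking a set alone cannot change the sign. The filters on probe sets and the eBayes settings leave the change itself as it was. The kept signs are therefore largely given in advance. The count of guidance genes called higher was 2 as reported, 0 when every probe set was tested, 1 with the replicate block (Unc5b), 1 to 2 with 1 array left out, and 0 in array set 1 and in array set 2 alone. The count called lower was 2, against 1 with the replicate block (Plxna2) and 0 in set 2 alone, and it stayed at 2 with any 1 array left out. With the replicate block, on 8 arrays, Sema4c had an adjusted p of 0.0890, Plxnc1 of 0.0613 and Flrt2 of 0.0530. Deviations from the group mean correlated over probe sets at 0.28, 0.14, -0.28 and 0.35 for same-numbered arrays 1 to 4. Since 3 of the 4 lay above 0.1 and 1 below 0, the numbers were not taken as pairs. Of 8 arrays with a shared number, 1 correlated best with its own number. Over all genes, 353 probe sets were called, against 181 of all 35553, 180 with the replicate block, 210 to 318 with 1 array left out, 598 with the array set as a block, and 202 and 59 within sets 1 and 2. Sets alone hold 5 and 4 arrays. Mical2 passed with array weights (adjusted p = 0.0422). The brighter filter left 29 of the 51 genes. Of 231 median changes compared with the main fit, over families and over all guidance genes, 18 moved by at least 0.078. G-CSF replicates 4 and 5 differed by an SD of 0.279, the least of any pair within a group, and counted as 1 they left the same 4 genes called. Low signal limits what can be seen for the 22 dim genes.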
